A study of Bos taurus with 16 samples.

Results

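The transcripts of 10 genes that write, oxidise and read DNA methylation were examined in bovine blastocysts from cows fed 2 levels of methionine. The genes were DNMT1, UHRF1, DNMT3A, DNMT3B, DNMT3L, TET1, TET2, TET3, MBD2 and MBD3, and each was taken from the count tables by its gene symbol, which gave 10 of the 22358 loci in all. For 9 of them the symbol itself was listed. TET1 was listed as LOC513640, and the RefSeq gene table of the assembly ARS-UCD2.0 gives gene ID 513640 as TET1. Its locus lay between HNRNPH3 and CCAR1 in the order of the tables. None of the 10 genes was chosen by its values, although earlier results of these data were known when they were chosen.

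All cows were Holstein and were superovulated. The methionine-rich group was fed a basal diet with rumen-protected methionine from calving until the embryos were flushed, and the control group was fed the same basal diet without this supplement. Blastocysts of good or excellent quality from each of 8 cows, 4 a treatment, were divided into 2 pools a cow, and the RNA of each pool was extracted and linearly amplified before library preparation, so a pool stands for a single embryo or a few embryos of 1 dam. The sample labels give the tissue as IVF embryos, whereas the methods of the study describe embryos flushed from the cows. The methionine-rich pools held more blastocysts on the whole. Most of them also had a lower RNA quality number in the study than every control pool with a value, and the part of RNA quality in the levels was not tested. The ages of the cows are not given in the sources used here. Pools are written as C (control) or M (methionine-rich), the number of the cow and the number of the pool.

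DNA methylation in mammals is copied at replication by DNMT1, which UHRF1 brings to hemimethylated sites, and is laid down on unmethylated DNA by DNMT3A and DNMT3B with the help of DNMT3L, a member of the family without catalytic activity. The TET enzymes oxidise 5-methylcytosine, which leads to its loss through dilution or base excision, and proteins with a methyl-CpG binding domain, such as MBD2 and MBD3, link methylated or formerly methylated DNA to the NuRD deacetylase and remodelling complex. The preimplantation embryo loses much of the methylation of its gametes and starts to remethylate by the blastocyst stage. The methyl group itself comes from S-adenosylmethionine, which is made from methionine. The comparison therefore asks whether the supply of methionine to the dam went with a difference in the transcripts of this machinery. Methylation of DNA was not measured.

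Pool C3.2, for which the study found few reads in exons, was left out of the comparisons as in its methods. It held 1745048 counts, whereas the totals of the other 15 pools ranged from 5624126 to 7826542 counts. Markers of trophectoderm, the outer layer of the blastocyst, summed to between 3072 and 9681 CPM (counts of a gene scaled to a common total in every pool) in these pools, and markers of the inner cell mass to between 127.9 and 1793 CPM. The highest pool in both was C4.2, and the next highest for the inner cell mass stood at 493.1 CPM. Of the inner cell mass markers, KLF4 had up to 12634 counts in a pool and the others at most 569. Hypoblast markers summed to between 103.5 and 351.3 CPM. Of the 6, GATA6, PDGFRA and COL4A1 had counts in all 15 pools, HNF4A in 14 and GATA4 in 7, and SOX17 was listed at 0 in these pools. In C2.1, 12 leukocyte markers summed to 2401 CPM and 10 of them had counts, against at most 57.58 CPM in the other control pools and 18.65 to 55.54 CPM in the methionine-rich pools. Oocyte markers summed to at most 22.75 CPM and those of cumulus and granulosa cells to at most 69.04 CPM, with ranges that overlapped between treatments, and uterine and oviduct markers reached at most 5.262 CPM. In pooled embryos, fewer cells of a type and less RNA per cell cannot be told apart.

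Of the 10 genes, 9 had at least 1 count in the 15 pools, and 6 passed the filter of a summed CPM of at least 15. These 6 were DNMT1, UHRF1, DNMT3A, TET1, TET2 and MBD3. DNMT3B, DNMT3L, TET3 and MBD2 did not pass and are given as counts. None of the 6 genes differed between treatments at an FDR under 0.1 in edgeR's exact test, in which 110 of the 10519 loci tested were called (1.05%; 29 or 0.276% higher with the methionine-rich diet and 81 or 0.77% higher in control), and unadjusted p was above 0.05 for each of them, against 898 loci (8.54%) with p under 0.05. The exact test takes the pools of a cow as independent. With edgeR's quasi-likelihood test, 0 loci were called and 909 (8.64%) had an unadjusted p under 0.05, and the FDR of the 6 genes lay between 0.833 and 0.997. Unadjusted p was under 0.05 for 6.26% of loci with counts summed per cow, for 4% with limma voom and for 7.42% with DESeq2, which called 69 loci (0.656%). In 2 of the 6 genes the methionine-rich pools were higher by the log2 fold change and in 4 the control pools were higher. The median log2 fold change was -0.18 over the 6 genes and -0.05 over all loci tested, and the medians of its absolute value were 0.48 and 0.44, respectively.

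**Figure D1:**
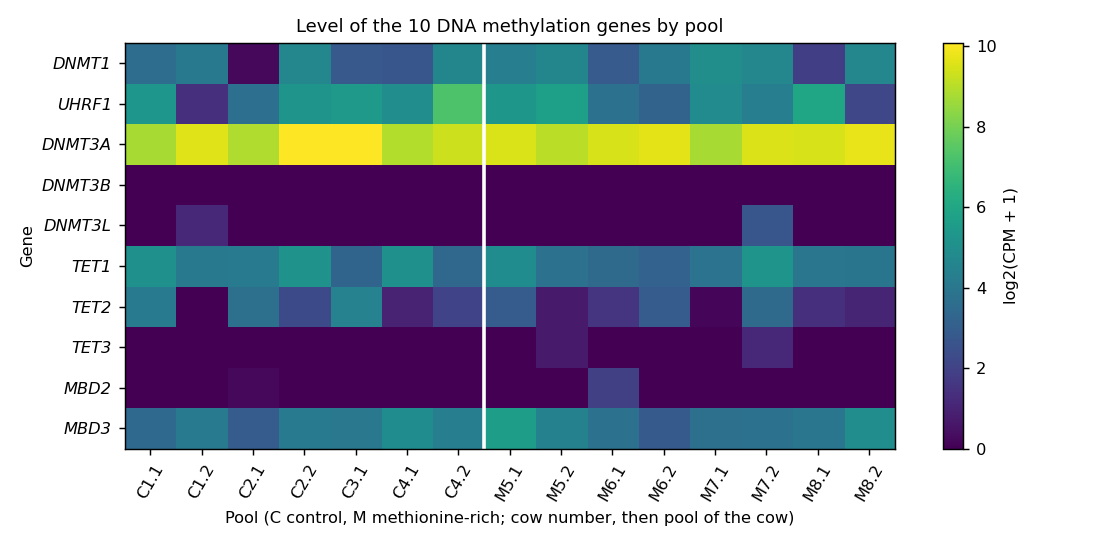
Level of the 10 genes, as log2(CPM + 1), in the 15 pools, with genes in rows, pools in columns and a white line between the 7 control and the 8 methionine-rich pools. Colours compare pools within a row, because transcript length was not taken into account. DNMT3B is at 0 throughout, DNMT3L, TET3 and MBD2 have counts in 2 pools each, and no gene separates the treatments.

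DNMT1, the maintenance methyltransferase (locus XLOC_019442), had 1 to 243 counts in a pool. In the control pools its level ranged from 0.1778 CPM in C2.1, with 1 count, through a median of 11.35 to 24.76 CPM in C2.2, the other pool of the same cow. In the methionine-rich pools it ranged from 2.645 CPM in M8.1 through a median of 21.38 to 31.05 CPM in M7.1. The lowest and highest control values thus came from a single dam, and the pools of the 2 treatments overlapped over most of their range. Averaged per cow, the control cows stood at 13.62, 12.47, 6.062 and 14.55 CPM (cows 1 to 4) and the methionine-rich cows at 21.38, 11.11, 27.68 and 13.68 CPM (cows 5 to 8). Cows 5 and 7 lay above every control cow, whereas cows 6 and 8 lay among them. The means were 11.67 ± 3.837 CPM for control and 18.46 ± 7.536 CPM for methionine-rich (SD, n = 4 cows).

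The log2 fold change of DNMT1, methionine-rich over control, was 0.64 in edgeR's exact test (FDR = 0.975), and 0.67 ± 0.64 (SE) by DESeq2. Between cows, the mean of log2(CPM + 1) was higher by 0.60 ± 0.39 (SE) with the methionine-rich diet, with a 95% interval from -0.36 to 2.02 (exact two-sided permutation test of 8 cows with 70 possible assignments, p = 0.229; adjusted over all loci tested, 1.0). This difference was slightly larger than the SD of the cow values on this scale, 0.53 for control and 0.57 for methionine-rich, and its interval included 0. C2.1, the pool with 1 count of DNMT1, is also the pool with leukocyte transcripts, and their part in its value was not tested. Without C2.1 the difference between cows was 0.37 (exact permutation test, p = 0.543), without cow 3 it was 0.34, and without cow 7 it was 0.39. The log2 fold change without cow 7 was 0.33. Without C4.2, described above, the difference between cows was 0.92 (exact permutation test, p = 0.114). The smallest p that the 70 assignments allow is 0.02857, so an adjusted p under 0.1 over all loci was hardly within reach.

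UHRF1, the protein that recognises newly replicated, hemimethylated DNA (XLOC_019518), varied more widely. The control pools ranged from 1.65 CPM in C1.2 through a median of 36.83 to 155.3 CPM in C4.2, and the methionine-rich pools from 3.376 CPM in M8.2 through 23.4 to 62.36 CPM in M8.1. C4.2 alone gave 1208 of the 3955 counts of the gene in the 15 pools, or 30.5%, and the next control pool, C3.1, stood at 43.37 CPM. The study lists C4.2, like C4.1 and M8.2, as a single blastocyst. The cow means were 20.02, 24.37, 43.37 and 92.57 CPM in the control cows and 45.52, 10.6, 23.4 and 32.87 CPM in the methionine-rich cows. Cow 4, the dam of C4.2, lay above every methionine-rich cow, and cow 6 lay below every control cow.

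The control mean of UHRF1 was 45.08 ± 33.24 CPM and the methionine-rich mean was 28.09 ± 14.77 CPM (SD, n = 4 cows). The log2 fold change was -0.64 in edgeR's exact test (FDR = 0.972) and -0.61 ± 0.67 (SE) by DESeq2. The difference between cows was -0.58 ± 0.65 (SE) on the log2 scale, with an interval from -3.01 to 1.14 (exact permutation test, p = 0.457), and was within the spread between cows. Without cow 4 the log2 fold change was 0.11 in the exact test, and the difference between cows was -0.15. C4.2 also had the highest sums of inner cell mass (1793 CPM), trophectoderm (9681 CPM) and cumulus and granulosa markers (69.04 CPM). Its inner cell mass sum came mostly from KLF4, with up to 12634 counts in a pool. Only 2 of the 10 cumulus and granulosa markers had counts in C4.2. The part of these transcripts in its UHRF1 level was not tested. Without this pool the log2 fold change was 0.06 and the difference between cows -0.18. With the number of blastocysts as a covariate, which differed between treatments, edgeR's quasi-likelihood test gave a log2 fold change of 0.32 (FDR = 0.976). DNMT1 and UHRF1, which act in the same step, did not rise and fall together over the 15 pools, with a Spearman correlation of -0.07.

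**Figure D2:**
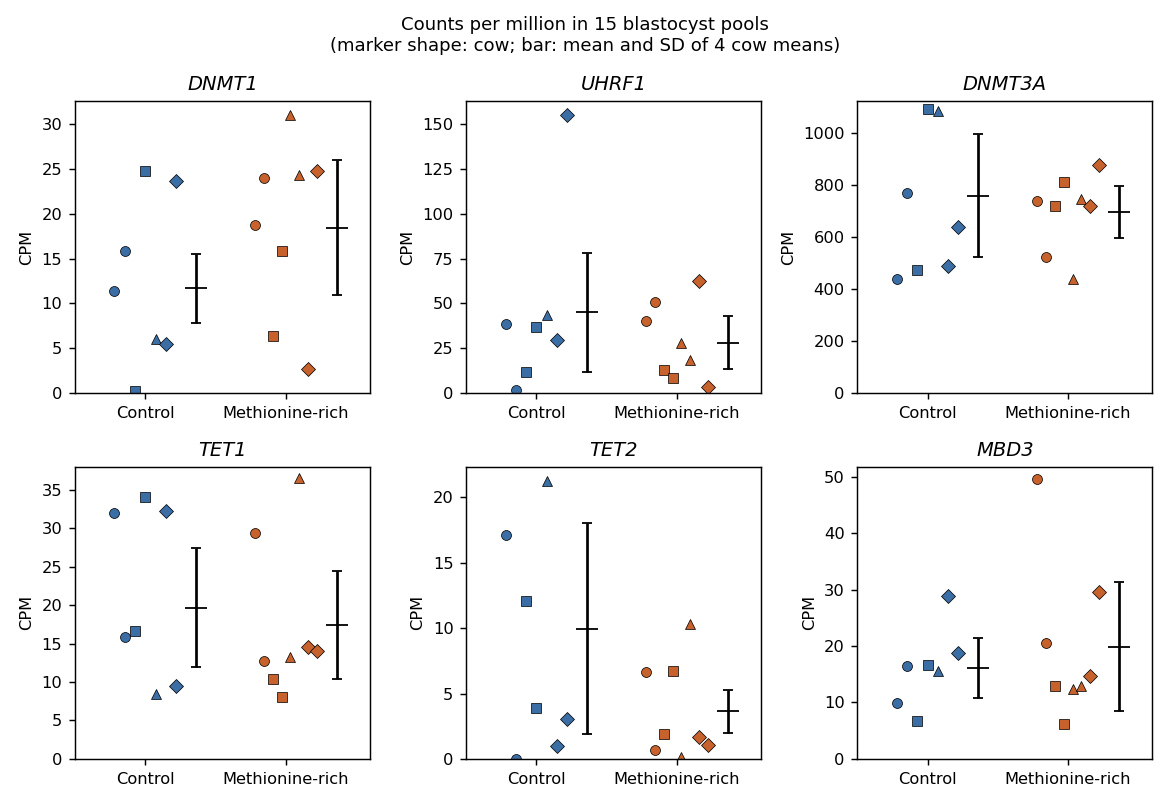
CPM of the 6 genes that passed the filter, in 7 control (blue) and 8 methionine-rich (orange) pools, with a marker shape for each cow within a treatment; the bars give the mean and SD of the 4 cow means. The 2 pools of a cow often lie far apart, as for DNMT1 in cow 2 (squares, control) at 0.1778 and 24.76 CPM, and the pools of the treatments overlap in every panel.

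DNMT3A, a methyltransferase that acts on unmethylated DNA (XLOC_002103), was the steadiest of the genes. The control pools ranged from 438.5 CPM in C1.1 through a median of 637.1 to 1091 CPM in C2.2, and the methionine-rich pools from 436.7 CPM in M7.1 through 727.3 to 875.5 CPM in M8.2. The highest pool was 2.499 times the lowest. The cow means were 604.3, 782.6, 1085 and 563.4 CPM in the control cows and 630.9, 765, 591.2 and 796.5 CPM in the methionine-rich cows, so that all methionine-rich cows lay within the range of the control cows. The highest cow, cow 3, is represented by 1 pool.

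The means of DNMT3A were 758.9 ± 237.5 CPM for control and 695.9 ± 100.2 CPM for methionine-rich (SD, n = 4 cows). In edgeR's exact test the log2 fold change was -0.03 (FDR = 1.0), and it was -0.02 ± 0.23 (SE) by DESeq2. The difference between cows was -0.09 ± 0.24 (SE) with an interval from -0.87 to 0.49 (exact permutation test, p = 0.8), the narrowest interval of the 6 genes, and turned to 0.10 without cow 3. Its log2 fold change in the exact test was above 0 without cow 3, cow 5 or cow 7, at 0.14, 0.07 and 0.04, respectively.

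DNMT3B, the second enzyme of this kind (XLOC_003445), was listed at 0 in all 16 pools. A count of 0 allows up to 3 counts in a pool, which is 0.3833 to 0.5334 CPM in the 15 pools by counting error alone. MAPRE1, the next locus in the tables, had 142 to 1725 counts. DNMT3L (XLOC_000419) had 8 counts in C1.2 (1.2 CPM) and 36 in M7.2 (5.469 CPM), and 0 in the other 13 pools. The level of DNMT3L in a treatment was therefore that of a single pool. Several genes that most cells use were also near 0 in these tables. Of the 2 loci listed as GAPDH, a glycolytic enzyme, 1 had 0 to 5 counts and the other 1 to 64, YWHAZ had 0 to 27 and TUBA1B 0 to 20. Others were well counted, as ACTB had 25190 to 69312, RPLP0 2588 to 8436 and EEF1A1 1262 to 8586. PPIA had 2303 to 9615 at 1 locus and 3460 to 9534 at the other.

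TET1 (XLOC_013920), which oxidises 5-methylcytosine and binds DNA through a CXXC zinc finger, had counts in all 15 pools. The control pools ranged from 8.486 CPM in C3.1 through a median of 16.71 to 34.05 CPM in C2.2, and the methionine-rich pools from 8.078 CPM in M6.2 through 13.67 to 36.61 CPM in M7.2. The ranges were nearly the same. Of the methionine-rich pools, M5.1 and M7.2 stood at 29.35 and 36.61 CPM and the other 6 at or below 14.62 CPM. The cow means were 23.98, 25.38, 8.486 and 20.91 CPM in the control cows and 21.08, 9.217, 24.95 and 14.33 CPM in the methionine-rich cows. Here the lowest cow, cow 3, is again the cow with 1 pool.

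The means of TET1 were 19.69 ± 7.698 CPM for control and 17.39 ± 6.998 CPM for methionine-rich (SD, n = 4 cows). The log2 fold change was -0.32 in edgeR's exact test (FDR = 1.0) and -0.32 ± 0.42 (SE) by DESeq2. The difference between cows was -0.15 ± 0.46 (SE) with an interval from -1.36 to 1.45 (exact permutation test, p = 0.771), and was 0.10 without cow 6. The gene did not differ between treatments beyond the spread between cows.

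TET2 (XLOC_018388), a TET enzyme that lacks the CXXC domain of TET1, had the largest fold change of the 6 genes and the fewest counts, 607 in the 15 pools. The control pools ranged from 0 in C1.2 through a median of 3.869 to 21.28 CPM in C3.1, and the methionine-rich pools from 0.1278 CPM in M7.1, with 1 count, through 1.789 to 10.33 CPM in M7.2. The 3 highest pools were all control pools, C3.1, C1.1 and C2.1, at 21.28, 17.15 and 12.09 CPM. The other 4 control pools lay within the range of the methionine-rich pools or below it. The cow means were 8.575, 7.98, 21.28 and 2.037 CPM in the control cows and 3.637, 4.32, 5.229 and 1.375 CPM in the methionine-rich cows. Control cows 1, 2 and 3 lay above every methionine-rich cow, and cow 4 lay among them.

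The means of TET2 were 9.969 ± 8.1 CPM for control and 3.64 ± 1.645 CPM for methionine-rich (SD, n = 4 cows). With edgeR's exact test the log2 fold change was -1.33 (FDR = 0.859) and -1.34 ± 0.94 (SE) by DESeq2. The difference between cows was -1.0 ± 0.66 (SE) with an interval from -3.22 to 1.03 (exact permutation test, p = 0.2, and 1.0 when adjusted over all loci tested). Its size was below the SD of the control cows on this scale, 1.18, and above that of the methionine-rich cows, 0.61. When the counts of a cow were summed, edgeR's quasi-likelihood test gave -1.58 (FDR = 0.838). The value was -0.79 with limma voom (FDR = 0.993) and -2.52 with the number of blastocysts as a covariate in edgeR's quasi-likelihood test (FDR = 0.447), and it moved with single cows. Without cow 4 the difference was -1.51 (exact permutation test, p = 0.0286, the smallest that the 35 assignments of 7 cows allow), and without cow 3, whose only pool gave 26.0% of the counts, it was -0.55. C2.1, the pool with leukocyte transcripts, was among the high ones, and without it the difference was -0.78 (exact permutation test, p = 0.343).

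TET3 (XLOC_002353), the family member known from the oocyte and zygote, had 5 counts in M5.2 (0.6597 CPM), 8 in M7.2 (1.215 CPM) and 0 in the other 13 pools. The 7 control pools were all at 0, which allows up to 0.5334 CPM in the shallowest of them. The gene did not pass the filter, and with so few counts no comparison between treatments is given for it. M7.2 was the highest methionine-rich pool for TET1, TET2, TET3 and DNMT3L.

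MBD3, the methyl-CpG binding domain protein of NuRD that binds methylated DNA weakly (XLOC_019684), had 37 to 360 counts in a pool. The control pools ranged from 6.757 CPM in C2.1 through a median of 16.5 to 28.85 CPM in C4.1, and the methionine-rich pools from 6.227 CPM in M6.2 through 13.85 to 49.61 CPM in M5.1. The median was lower in the methionine-rich pools although their highest pool exceeded every control pool. The cow means were 13.2, 11.73, 15.63 and 23.81 CPM in the control cows and 35.03, 9.585, 12.65 and 22.16 CPM in the methionine-rich cows. Cow 5 was above and cow 6 below all control cows.

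The means of MBD3 were 16.09 ± 5.39 CPM for control and 19.86 ± 11.44 CPM for methionine-rich (SD, n = 4 cows). By edgeR's exact test the log2 fold change was 0.23 (FDR = 1.0) and 0.24 ± 0.42 (SE) by DESeq2. The difference between cows was 0.17 ± 0.45 (SE) with an interval from -1.22 to 1.5 (exact permutation test, p = 0.743). Without cow 5 both measures were below 0, at -0.05 in the exact test and -0.14 between cows, and with the number of blastocysts as a covariate the log2 fold change was 0.73 (FDR = 0.726 in edgeR's quasi-likelihood test). MBD2 (XLOC_012423), which binds methylated CpG sites and takes the place of MBD3 in NuRD, had 1 count in C2.1 (0.1778 CPM) and 20 in M6.1 (2.725 CPM), and 0 in the other 13 pools.

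**Figure D3:**
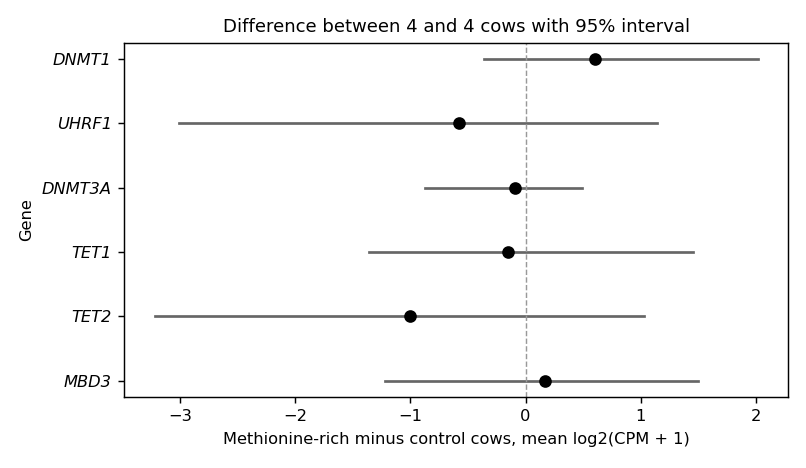
Difference between 4 methionine-rich and 4 control cows in the mean of log2(CPM + 1) for the 6 genes that passed the filter (points), with the 95% interval from the permutation test (lines). Every interval includes 0, and that of DNMT3A, from -0.87 to 0.49, is the narrowest.

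The cows of the 2 treatments overlapped in each of the 6 genes. Over all loci tested the cows did not overlap in 232 (2.21%), of which 122 were higher in the methionine-rich cows (1.16%) and 110 in the control cows (1.05%). None of these loci had an adjusted p under 0.1 in the permutation test over cows, the smallest being 1.0. With a smallest possible p of 0.02857, only a large share of all loci at that value could have brought the adjusted p under 0.1. The 232 loci with an unadjusted p under 0.05 are these same loci, because only cows that do not overlap reach that smallest p.

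The genes differed in how far the 15 pools lay apart. DNMT3A had a coefficient of variation (CV) of 29.94% over the 15 pools, where counting error alone would give 1.428%, and 3.05% of the loci tested had a lower CV. TET1 (54.15%), MBD3 (60.61%) and DNMT1 (62.2%) lay below the median of all loci, 80.35%, whereas UHRF1 (103.9%) and TET2 (113.1%) lay above it. This comparison took no account of level, and the mean over the 15 pools was 703.5 CPM for DNMT3A and 5.839 CPM for TET2. Counting error would give 6.158% for UHRF1 and 15.72% for TET2. In each of the 6 genes the spread between pools was several times the counting error.

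Much of this spread was found between pools of the same cow. Over the 7 cows with 2 pools, the median absolute difference between their log2(CPM + 1) was 0.49 for DNMT3A, 0.95 for MBD3, 0.98 for TET1, 1.18 for DNMT1, 1.43 for TET2 and 1.55 for UHRF1. The largest differences were 4.45 for DNMT1 in cow 2, 4.18 for TET2 in cow 1 and 3.89 for UHRF1 in cow 1. Each of these exceeded the whole range of the cow means of its gene, which was 2.02 for DNMT1, 3.23 for TET2 and 3.01 for UHRF1. The lower pools had few counts, 1 for DNMT1 in C2.1, and 0 for TET2 and 11 for UHRF1 in C1.2. The largest difference also exceeded the range for TET1 (1.66 against 1.48) and DNMT3A (1.2 against 0.94), but not for MBD3 (1.24 against 1.77). The median difference was below the range in every gene. Most cow means average 2 pools, which narrows their range.

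**Figure D4:**
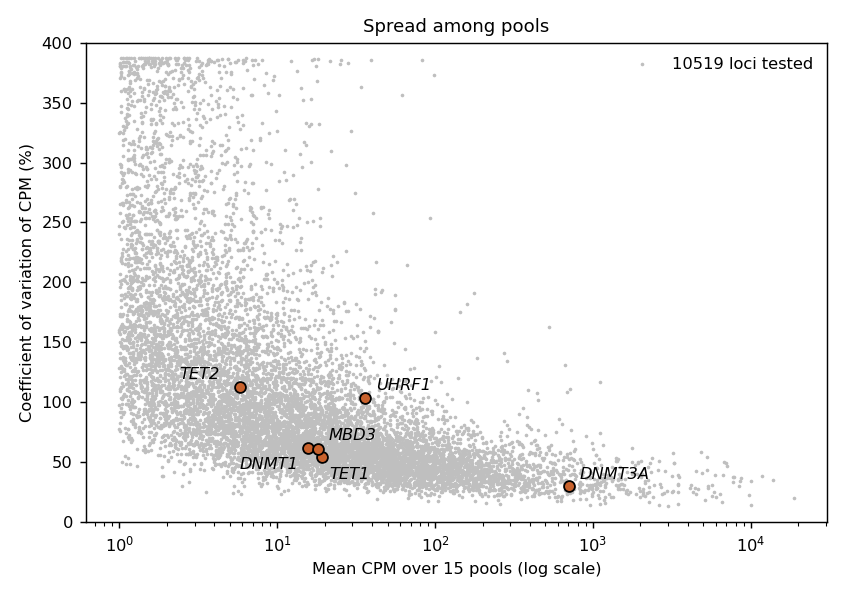
Coefficient of variation of CPM over the 15 pools (%) against the mean CPM (log scale) for the 10519 loci tested (grey) and the 6 genes (orange). DNMT3A, at 29.94%, lies among the steadier loci, and TET2 (113.1%) and UHRF1 (103.9%) vary most among the 6.

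The 6 genes did not follow each other over the pools. The Spearman correlations between them ranged from -0.41 for TET2 with MBD3 to 0.29 for UHRF1 with MBD3, over 15 pools that share cows and depth. Of all loci with a gene name, those most like UHRF1 were B4GALT3 (0.925) and GSDMB (0.836), those most like DNMT3A were PSMD1 (0.879) and FAN1 (0.879), those most like TET1 were APEX2 (0.836) and PPM1H (0.804), and those most like MBD3 were TMEM53 (0.838) and CCNE1 (0.832). These are the highest among 10519 loci and describe the 15 pools only. DNMT1 and TET2, with fewer than 10 counts in some pools, were not compared in this way.

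The genes that work with the 10 were examined in 7 lists of 70 genes, of which 62 were found and 55 loci were tested. None was called by edgeR's exact test (1.05% of all loci) or by the quasi-likelihood test, and 2, TRIM28 among them, had an unadjusted p under 0.05 in the exact test (8.54% of all loci). In 2 of the 55 loci (3.64%) the cows did not overlap, against 2.21% of all loci tested. They were CDK2AP1, higher in the methionine-rich cows, and CXXC5, higher in the control cows.

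Of the 9 other readers of 5-methylcytosine, 8 were found and 7 tested, with 2 log2 fold changes above 0 and 5 below and a median of -0.26. UHRF2, a relative of UHRF1, had means of 29.03 ± 16.4 CPM for control and 21.63 ± 7.815 CPM for methionine-rich (SD, n = 4 cows here and for the other genes of the lists). MBD4, a reader that is also a DNA glycosylase, had 8.368 ± 8.06 and 7.538 ± 3.944 CPM, respectively.

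The partners of maintenance methylation were all found and tested, 7 of 7, with 3 log2 fold changes above 0 and 4 below and a median of -0.03. USP7, a deubiquitinase that stabilises DNMT1 and UHRF1, had 203.4 ± 53.64 CPM in the control cows and 162.3 ± 39.45 CPM in the methionine-rich cows. PCNA, the replication clamp that tethers DNMT1, had 102.1 ± 43.77 and 131.1 ± 56.64 CPM. LIG1, the ligase of Okazaki fragments and a ligand of UHRF1, had 56.43 ± 12.7 and 50.71 ± 8.98 CPM. In each of the 3 genes the difference between the means was smaller than the SD over the control cows.

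The genes that remove oxidised or deaminated bases and repair the site were all found, and 13 of 14 were tested, with 4 log2 fold changes above 0 and 9 below and a median of -0.40, the lowest of the lists. PARP1, which senses strand breaks, had 2373 ± 962.1 CPM in the control and 2198 ± 671.3 CPM in the methionine-rich cows. UNG, the uracil glycosylase, had 1378 ± 791.3 and 1537 ± 344.8 CPM. GADD45A, a stress-induced protein linked to demethylation, had 175.7 ± 53.61 and 219.5 ± 50 CPM. TDG, the glycosylase that excises the end products of TET oxidation, was tested too and had 28.8 ± 14.69 and 19.93 ± 6 CPM (FDR = 0.893 in edgeR's exact test). It is named for its role and not by the rule for the lists.

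Of the 9 genes that guard methylation in the early embryo, 7 were found and 6 tested, with 2 log2 fold changes above 0 and 4 below and a median of -0.23. CTCF, the insulator protein that binds unmethylated imprinting control regions, had 244.7 ± 42.77 CPM in the control and 264 ± 89.4 CPM in the methionine-rich cows. YY1, a zinc finger factor, had 181.6 ± 75.57 and 173.5 ± 42.65 CPM. DPPA3, the maternal protein that shields methylation in the zygote and binds UHRF1, had 93.57 ± 35.3 and 85.13 ± 24.47 CPM. TRIM28, the corepressor that holds imprints, had 2 to 243 counts in a pool and means of 1.25 ± 0.4434 and 6.954 ± 9.639 CPM (FDR = 0.265 in edgeR's exact test; exact permutation test over cows, p = 0.229).

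Of the 13 genes of NuRD, 11 were found and 10 tested, with 4 log2 fold changes above 0 and 6 below and a median of -0.03. HDAC1, its deacetylase, had 676.3 ± 163.9 CPM in the control and 873.7 ± 230.9 CPM in the methionine-rich cows, and MTA2, a scaffold subunit, had 187 ± 20.72 and 192.6 ± 37.95 CPM. CDK2AP1, a small subunit of the complex, had cow means of 176.1, 196.9, 194.2 and 229 CPM in the control cows and 260.2, 461.6, 259.9 and 275.6 CPM in the methionine-rich cows. Its highest cow, cow 6, stood well above the other methionine-rich cows. The difference was 0.62 ± 0.21 (SE) on the log2 scale (exact permutation test, p = 0.0286, the smallest possible; adjusted over all loci tested, 1.0), and the FDR of edgeR's exact test was 0.893. Without cow 6 it was 0.42 (exact permutation test, p = 0.0571), and without pool C4.2 it was 0.46 (exact permutation test, p = 0.171).

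Of the 8 partners and co-substrate enzymes of the TET proteins, 6 were found, with 3 log2 fold changes above 0 and 3 below among the 6 loci tested and a median of -0.07. IDH1, which makes the 2-oxoglutarate that TET enzymes need, had 2012 ± 1027 CPM in the control and 2150 ± 403.9 CPM in the methionine-rich cows. OGT, a glycosyltransferase bound by TET proteins, had 655.7 ± 522.8 and 568.5 ± 204.6 CPM. IDH3A, a subunit of a mitochondrial isocitrate dehydrogenase, had 120.9 ± 49.03 and 163.3 ± 55.95 CPM. None of these differences exceeded the SD between control cows.

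CXXC5, a zinc finger protein that can bind TET2, had cow means of 38.67, 19.13, 28.83 and 18.85 CPM in the control cows and 15.35, 15.28, 9.941 and 18.2 CPM in the methionine-rich cows. The gap between the treatments was narrow, as cow 4 stood at 18.85 and cow 8 at 18.2 CPM. The difference was -0.77 ± 0.30 (SE; exact permutation test, p = 0.0286; adjusted over all loci tested, 1.0), and the FDR of edgeR's exact test was 0.793. The unadjusted p of the exact permutation test was above 0.05 in 9 of 14 alternatives. Among these the difference was -0.53 with all 16 pools (p = 0.229), -0.61 without C4.2 (p = 0.2), -0.61 without cow 7 (p = 0.114) and -0.79 with TMM-normalized CPM (p = 0.0857), each by the exact permutation test. CXXC5 and TRIM28 were named after their values were seen.

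Of the 10 genes that make or use S-adenosylmethionine, 9 were found and 6 tested, with 3 log2 fold changes above 0 and 3 below and a median of 0.01. MAT2A, the enzyme that joins methionine to ATP, had 186.9 ± 49.68 CPM in the control and 145.5 ± 56.85 CPM in the methionine-rich cows, and MAT2B, its regulatory subunit, had 85.16 ± 49.1 and 92.63 ± 57.35 CPM. AHCYL1, a relative of S-adenosylhomocysteine hydrolase, had 39.07 ± 13.82 and 65.68 ± 26.23 CPM (exact permutation test over cows, p = 0.171).

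**Figure D5:**
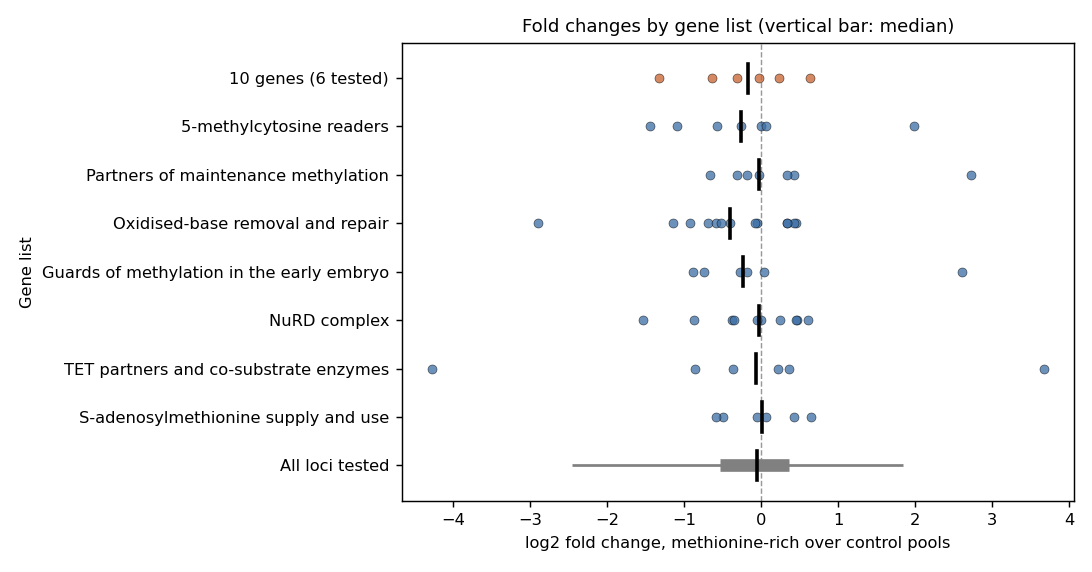
log2 fold change in the exact test, methionine-rich over control pools, of the 6 of the 10 genes that were tested (orange) and of the tested genes of the 7 lists (blue), with the median of each as a vertical bar. For all loci tested, the grey bars span the 25th to the 75th percentile (-0.53 to 0.36) and the 5th to the 95th (-2.45 to 1.84). No gene shown was called at an FDR under 0.1.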

How the data were processed

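RNA of 16 pools of bovine blastocysts was amplified and sequenced. The authors mapped single-end reads to the genome bosTau7 with TopHat2 2.0.4, assembled transcripts with Cufflinks 2.0.2 and used htseq-count to assign reads to loci, and deposited whole-number counts per locus, without normalization. Each file holds 22552 rows. The 182 loci listed under several names were entered once. No pair of pools held the same library (smallest chi-square per degree of freedom, 64.4). Whether strand was used in counting is not given in the sources used here, so reads of overlapping genes cannot be told apart.

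Loci with a summed CPM of at least 15 over 15 pools were tested, as in the methods of the study, by the exact test of edgeR 4.0.16 (R 4.3.3; TMM normalization, common and tagwise dispersions, common dispersion 1.142), with Benjamini-Hochberg adjustment over all 10519 loci. The quasi-likelihood test, DESeq2 1.42.0 and limma 3.58.1 (voom, random effect of the cow) were alternatives. Because the cow received the diet, CPM were also averaged per cow, log2(CPM + 1) was compared by a two-sided exact permutation test, and 95% intervals were obtained by inverting that test. Fold changes of low genes are understated on this scale. The code was tested on simulated data. The intervals reflect the spread between cow means, whereas floors of 3 counts cover counting error only. Other alternatives were the pseudocount, the normalization, the filter, the pool left out, the number of blastocysts as a covariate, the pool number as a block, and each cow left out in turn. Leaving out C4.2 was added after seeing the data.

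The 10 genes and all lists were chosen with earlier results of these data known. Named genes were the 10, the 3 of each list with the highest mean CPM, any list gene with an FDR under 0.1, and the 2 named loci most correlated with each of the 10 genes that had at least 10 counts in every pool. Of the genes this rule or a small count would name, 2 are not reported here. Coding lengths and sequences were not used here, so levels were not compared between genes. The lane and sire of each pool were not given in the sources used here.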

Additional observations from a re-analysis of the deposited data

Results flagged for a closer look

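Among the 17 groups of pools examined for a pool far from the others, 5 had such a pool by Dixon's criterion, which chance reaches in about 5% of groups. UHRF1 stood at 155.3 CPM in the control pool C4.2, with 1208 counts, whereas the next control pool stood at 43.37 CPM. The other 4 were pools that alone held counts of a gene listed at 0 in the rest of their treatment, for which any count meets the criterion. DNMT3L had 1.2 CPM (8 counts) in the control pool C1.2 and 5.469 CPM (36 counts) in the methionine-rich pool M7.2. MBD2 had 0.1778 CPM (1 count) in the control pool C2.1 and 2.725 CPM (20 counts) in the methionine-rich pool M6.1.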

How the results depend on the processing

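None of the 6 genes tested was called under any of the 20 alternatives of the test over all loci. The number of loci called, 110 in the exact test, was 0 with the quasi-likelihood test on pools, on summed cows, with the number of blastocysts as a covariate and with a replicate block for the pool number, 0 with limma voom, 69 with DESeq2, 55 with a filter of 1 count, 6 with a filter of 1 CPM in 7 pools, 356 with all 16 pools, 64 without C2.1, 151 without C4.2 (an alternative chosen after seeing the data), and 62 to 153 with each cow left out. With all 16 pools 1 gene of the lists, ZBTB4, was called, with 820 counts in C3.2 and at most 55 elsewhere. Of 204 contrasts of the 6 genes, 190 kept their direction and their side of the threshold and 13 changed sign. With each cow left out, the log2 fold change of DNMT1 ranged from 0.33 (without cow 7) to 0.86 and its difference between cows from 0.34 (without cow 3) to 0.80. The log2 fold change of UHRF1 was 0.32 with the number of blastocysts as a covariate, 0.06 without C4.2 and, with each cow left out, ranged from -0.89 to 0.11 (without cow 4). That of DNMT3A was 0.0023 with limma voom, 0.17 with all 16 pools, and ranged from -0.15 to 0.14 with each cow left out, and its difference between cows was 0.16 with all 16 pools and ranged from -0.21 to 0.10 (without cow 3). The difference of TET1 between cows ranged from -0.49 to 0.10 (without cow 6), and MBD3 ranged from -0.05 (without cow 5) to 0.54 and, between cows, from -0.14 (without cow 5) to 0.45. The remaining contrast was that of TET2, -1.51 between cows without cow 4 (exact permutation test, p = 0.0286); its range over the cows left out was -1.51 to -0.55, and its log2 fold change was -2.52 with the blastocyst covariate (FDR = 0.447 in edgeR's quasi-likelihood test). Leaving out a cow or pool shows only that a value depends on it, and the cause of these changes was not tested. No same-numbered pools come from the same cow in both treatments, so the block stands for the pool number only.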
